A study of Mus musculus with 4 samples.

Results

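RIF1 occupancy was examined at 10 genes of the BCL2 family, which were given by name and make up 10 of the 22380 protein-coding genes in the GENCODE annotation of mouse genome build mm9. The genes were Bcl2, Bcl2l1, Mcl1, Bcl2l11, Bax, Bak1, Bbc3, Pmaip1, Bid and Bad. Occupancy had been measured in primary splenic B cells by chromatin immunoprecipitation and sequencing (ChIP-seq), using an antibody against the HA tag. The cells were isolated with anti-CD43 beads, stimulated with LPS (5 µg/ml) and IL-4 (5 ng/ml) and harvested after 72 h. In Rif1FH cells (genotype Rif1FH/FH, 2 samples) the endogenous RIF1 protein carries a Flag and HA tag at its N terminus, on a C57BL/6 background. Rif1WT cells (C57BL/6, Rif1WT/WT, 2 samples) have untagged RIF1, received the same stimulation and served as the negative control. The ages of the mice, and how many mice stand behind a sample, were not given in the sources used here.

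The deposited values were a single list of 16332 intervals that the authors retained from both Rif1FH replicates, with a chromosome, a start and an end for each. The list has no height, score or value per sample, so the depth of reads is unknown and replicates cannot be set against each other. For the same reason no level can be set beside Rif1WT cells. The study's methods describe no removal of intervals also called in Rif1WT cells, so whether listed intervals occur there too is unknown. Intervals under 50 kb, called peaks here, numbered 16043 and reached at most 14827 bp. Intervals of 50 kb or more, called wide intervals here and taken to be RIF1-associated domains (RADs), numbered 289 and began at 90000 bp. Per the study's text, intervals that overlapped a RAD were not kept as peaks, and in the list 0 peaks overlapped a wide interval. A gene that lies wholly inside a wide interval therefore cannot have a listed peak, and its long distance to the nearest peak follows from this filter. Positions of binding carry no expression, and the labelled cell type was therefore not checked by marker genes.

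BCL2 family proteins decide whether the outer mitochondrial membrane is permeabilised during apoptosis. The survival members BCL2, BCL-XL (encoded by Bcl2l1) and MCL1 hold the effectors BAX and BAK (Bak1) in check, and the BH3-only proteins BIM (Bcl2l11), PUMA (Bbc3), NOXA (Pmaip1), BID and BAD relieve this block or activate the effectors. In B lymphocytes this balance is well known for setting survival after activation, with BIM as a main killer of autoreactive cells and BCL2 as the gene joined to the immunoglobulin locus in follicular lymphoma. RIF1 is a replication timing factor that acts with protein phosphatase 1.

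All 3 survival genes had a RIF1 peak that overlapped the gene, by 89 of its 812 bp at Mcl1, and none of them was overlapped by a wide interval. Both effector genes, Bax and Bak1, lay wholly inside a wide interval, as did 3 of the 5 BH3-only genes, Bcl2l11, Bbc3 and Bad. Of the remaining BH3-only genes, Bid had peaks at its 5′ end and in its body, and Pmaip1 had neither kind of interval over it. In total 3 of 10 genes had a peak within 1 kb of a transcript 5′ end, against a background of 33.9% of all coding genes, and 4 of 10 had a peak over the gene, against 35.8% (37.3% with peaks at 5′ ends added). A wide interval overlapped 5 of 10, against 22.6%, a share that counts any overlap and not only genes wholly inside. Neither kind lay over the gene or at a 5′ end for 1 of 10, against 40.5%. The count at 5′ ends was thus close to the background. Of the 5 genes with no wide interval over them, 3 had a peak at a 5′ end, against 43.4% of such coding genes, and 4 had one there or over the gene, against 47.7%. Whether the survival and death genes differ was not tested, as the list holds no replicates and genes are not replicates of a condition.

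**Figure D1:**
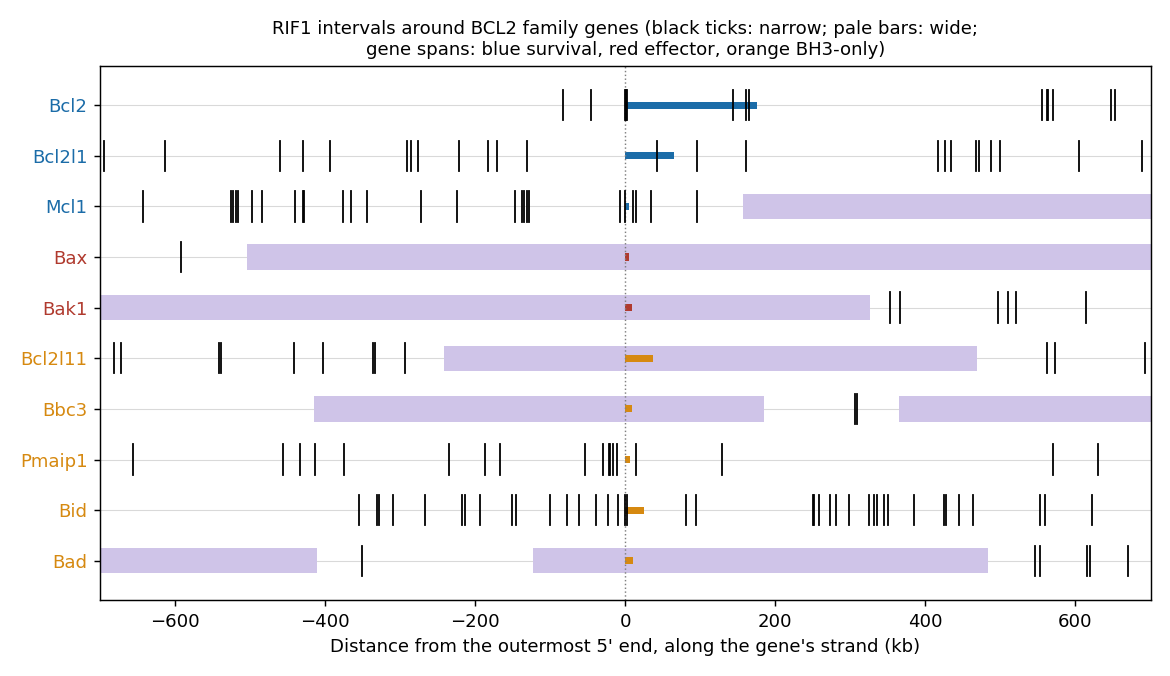
Positions of RIF1 intervals around the 10 genes, with distance from the outermost 5′ end along the strand of the gene in kb on the horizontal axis and 1 gene per line. Black ticks are peaks, pale bars are wide intervals and coloured bars are gene spans (blue survival, red effector, orange BH3-only). Bax, Bak1, Bcl2l11, Bbc3 and Bad lie inside a pale bar, and the other 5 genes have ticks on or beside them.

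Among the survival genes, Bcl2 (ENSMUSG00000057329.6, minus strand, chromosome 1, 108434755 to 108610851) had the most peaks. Its span of 176 kb, against a median of 15.4 kb for coding genes, held 5, a number that 0.903% of coding genes reached. Of these, 3 lay in the intron toward the 3′ end of the gene, 144, 161 and 165 kb from the 5′ end by their midpoints, where the noncoding gene D630008O14Rik on the opposite strand also overlaps all 3. They were 1170, 1617 and 1039 bp wide and had a GC content of 45.2, 49.8 and 48.6%. Another peak (108608777 to 108609499, 723 bp) had its midpoint in a coding exon and its nearer edge 1352 bp from the 5′ end, just outside the window of 1 kb. The remaining peak within the gene (108610140 to 108610659, 520 bp) had its midpoint in the 5′ UTR and its nearer edge 192 bp from the 5′ end. A further peak (108611121 to 108612292, 1172 bp) lay upstream, with its nearer edge 270 bp from the 5′ end. At least 2 peaks at 5′ ends, as in Bcl2, were found for 2.73% of coding genes and for no other member. The share for 5 peaks over the gene takes no account of gene length. Within 200 kb of Bcl2 there were 8 peaks, the 5 in the gene included. This made 13.9 per Mb, a density reached by 32.0% of coding genes.

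The 5′ end of Bcl2 itself was in no listed interval. It lay in a gap of 461 bp between the peaks on either side, and this gap had a GC content of 76.1% and 64 CpG dinucleotides. The flanking peaks had 57.5% (downstream) and 51.5% (upstream). Another gap between peaks of Bcl2, of 640 bp and inside the gene, went the other way. It had 38.3% and 16 CpG, between peaks of 59.6 and 57.5%. An outermost 5′ end between peaks that both lie within 1 kb, but inside neither, was found for 107 coding genes, or 0.478%. In contrast, 27.6% of coding genes had their outermost 5′ end inside a peak. The cause of the gap at the 5′ end was not tested, and without read depth it says only that no interval was listed there. The stretches below are shown to let the base composition of the gap be compared with that of the upstream peak. They are 250 bases each on the minus strand, chr1:108610852-108611101 just upstream of the 5′ end and inside the gap, and chr1:108611582-108611831 around the midpoint of the upstream peak. In these and later stretches, capitals mark motifs found on either strand, and matches may overlap. The motifs were the GC box (GGGCGG), the letters CCAAT, the letters TATAAA, and a G-quadruplex motif of 4 runs of at least 3 G separated by 1 to 7 bases.
Bcl2 gap: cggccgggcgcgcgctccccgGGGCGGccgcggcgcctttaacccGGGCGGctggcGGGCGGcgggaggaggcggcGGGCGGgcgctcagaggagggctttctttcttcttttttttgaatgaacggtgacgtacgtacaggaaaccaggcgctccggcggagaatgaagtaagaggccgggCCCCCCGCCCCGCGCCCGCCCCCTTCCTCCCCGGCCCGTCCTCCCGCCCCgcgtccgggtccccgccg
Bcl2 upstream peak: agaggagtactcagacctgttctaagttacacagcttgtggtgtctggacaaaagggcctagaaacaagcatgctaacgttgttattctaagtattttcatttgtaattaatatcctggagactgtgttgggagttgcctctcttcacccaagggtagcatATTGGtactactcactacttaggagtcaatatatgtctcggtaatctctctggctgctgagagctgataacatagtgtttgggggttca
The gap stretch had a GC content of 74.8% with 38 CpG, and held GC boxes on both strands and the G-quadruplex motif on the opposite strand. The peak stretch had 42.4% with 2 CpG, and its only match was CCAAT on the opposite strand. This was lower than the GC content of the whole upstream peak (51.5%). The downstream peak had 57.7% in the 300 bases around its midpoint. As the list holds no heights, a midpoint need not be the place of most signal.

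Mcl1 (ENSMUSG00000038612.9, plus strand, chromosome 3, 95462643 to 95467099) encodes a short-lived survival protein that activated B cells are known to need. Its single peak at the 5′ end (95461920 to 95462731, 812 bp) covered the 5′ end, and its midpoint lay 318 bp upstream. This peak was narrower than the lower quartile of all peaks (916 bp), and the median peak at a 5′ end of any transcript was 1550 bp wide. It had a GC content of 54.6% and 41 CpG. Within 200 kb of Mcl1 there were 11 peaks, or 27.2 per Mb, a density reached by 6.64% of coding genes. A wide interval of 920 kb that held 42 coding genes (95620001 to 96540000) began 153 kb downstream of Mcl1.

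Bcl2l1 (ENSMUSG00000007659.11, minus strand, chromosome 2, 152593052 to 152657464) has 10 annotated transcripts with 10 different 5′ ends, and none of these had a peak within 1 kb. Its span of 64.4 kb held 1 peak (152614411 to 152616584), which was 2174 bp wide and lay in an intron. The nearer edge of this peak was 37.7 kb from the nearest 5′ end. Its GC content of 50.3% was close to the median of all peaks (50.3%). Among peaks away from 5′ ends the median was 47.3% and the upper quartile 50.3%. The ratio of observed to expected CpG in the peak was 0.139, against a median of 0.246 in peaks away from 5′ ends. The 200 kb around Bcl2l1 held 6 peaks, or 12.9 per Mb, a density reached by 33.5% of coding genes.

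Bid (ENSMUSG00000004446.6, minus strand, chromosome 6, 120841948 to 120866871) was the single death gene with a peak at a 5′ end. BID links death receptors to mitochondria when it is cut by caspase 8. The peak (120865744 to 120867891, 2148 bp) covered 4 of its 5 annotated 5′ ends, with the midpoint 54 bp downstream of the outermost, and had 85 CpG and a G-quadruplex motif. Its GC content was 54.1%, against a median of 54.4% in peaks at 5′ ends. A second peak (120863546 to 120865497, 1952 bp) followed in the intron after a gap of 246 bp, and its nearer edge lay 1319 bp from the nearest 5′ end. Around Bid, 13 peaks lay within 200 kb, or 30.6 per Mb, the highest density of the 10 genes and one that 3.79% of coding genes reached.

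The 3 genes with a peak at a 5′ end thus differed in the form of it. Bid had a broad peak centred on the 5′ end, Mcl1 a narrow peak mostly upstream, and Bcl2 a pair of peaks that left the 5′ end free. The 4 peaks concerned had a median GC content of 54.3%. The sequences just upstream of Mcl1 (chr3:95462393-95462642, plus strand) and Bid (chr6:120866872-120867121, minus strand) are shown because they lie wholly within a peak.
Mcl1: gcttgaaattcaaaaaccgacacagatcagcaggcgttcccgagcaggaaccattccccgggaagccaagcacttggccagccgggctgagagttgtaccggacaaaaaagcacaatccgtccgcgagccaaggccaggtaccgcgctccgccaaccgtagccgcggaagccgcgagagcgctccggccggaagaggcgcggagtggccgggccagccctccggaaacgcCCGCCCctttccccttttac
Bid: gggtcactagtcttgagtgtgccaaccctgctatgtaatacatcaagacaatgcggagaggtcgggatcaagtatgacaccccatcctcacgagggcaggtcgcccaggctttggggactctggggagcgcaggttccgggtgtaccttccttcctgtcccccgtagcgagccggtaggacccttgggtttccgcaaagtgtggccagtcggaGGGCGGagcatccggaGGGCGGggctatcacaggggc
The GC content was 64.4% for Mcl1 and 61.6% for Bid, and the number of CpG was 26 and 14. Mcl1 had 1 GC box, on the opposite strand and starting 20 bp before the 5′ end. Bid had GC boxes starting 37 and 21 bp before its 5′ end. Among the same 250 bases upstream of all coding genes, 39.6% held a GC box.

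**Figure D2:**
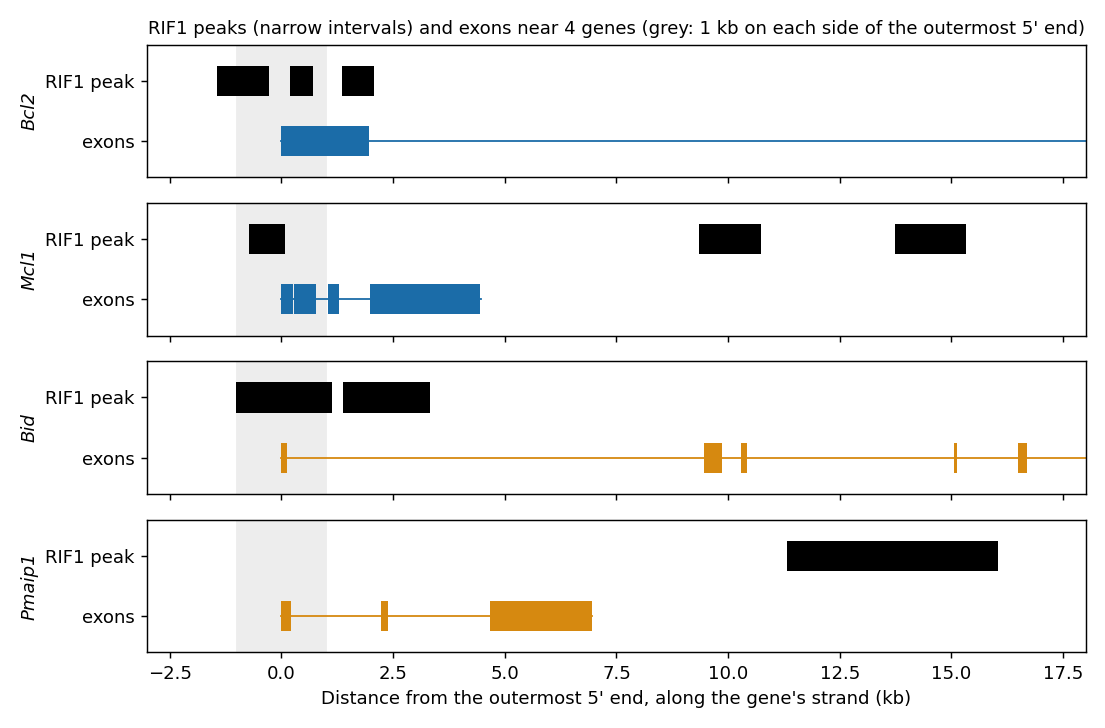
Peaks (black) and exons (coloured, blue survival and orange BH3-only) near Bcl2, Mcl1, Bid and Pmaip1, with distance from the outermost 5′ end in kb on the horizontal axis and the window of 1 kb on each side in grey. The 5′ end of Bcl2 falls in the gap of 461 bp, the peaks of Mcl1 and Bid cover the 5′ end, and the peak nearest to Pmaip1 lies past the end of the gene.

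Pmaip1 (ENSMUSG00000024521.7, plus strand, chromosome 18, 66618258 to 66625204), which encodes NOXA, an antagonist of MCL1, had no interval over it. The nearest peak began 4.36 kb past its 3′ end (66629566 to 66634305). At 4740 bp this peak was wide for its kind, as 98.8% of peaks were as narrow or narrower, and its GC content was 44.6%. No other coding gene has its 5′ end nearer to this peak, although that of Pmaip1 lay 11.3 kb away. Within 200 kb there were 10 peaks, 8 before the gene and 2 past it. Of these, 1 lay within 1 kb of any annotated 5′ end, against 7801 of all 16043 peaks. The density of 24.6 peaks per Mb was reached by 10.1% of coding genes, yet only 1 other coding gene had its 5′ end in this window, against a median of 7 for coding genes.

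Bax and Bak1, whose products form the pores in the outer membrane, lay well inside wide intervals. Bax (ENSMUSG00000003873.9, minus strand, chromosome 7, 52717065 to 52722268) was 504 kb from the nearer edge of an interval of 1800 kb (51426001 to 53226000), the 21st widest of 289, which overlapped 108 coding genes. Its nearest peak was 591 kb away and lay in Nomo1, 87.5 kb beyond the edge of the wide interval. A nearest peak at this distance or farther was found for 14.5% of coding genes. Bak1 (ENSMUSG00000057789.6, minus strand, chromosome 17, 27156755 to 27165954) was 317 kb from the nearer edge of an interval of 1040 kb (26840001 to 27880000) with 22 coding genes. Its nearest peak, at the 5′ end of Atp6v0e, was 343 kb away and 25.9 kb beyond the edge.

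The BH3-only genes under wide intervals were Bcl2l11, Bbc3 and Bad. Bcl2l11 (ENSMUSG00000027381.10, plus strand, chromosome 2, 127951774 to 127988283) lay in an interval of 710 kb (127710001 to 128420000) that overlapped only 3 coding genes, or 4.23 per Mb, against a median of 16.0 per Mb over the 289 wide intervals. No other coding gene had its 5′ end within 200 kb of Bcl2l11. Its nearest peak was at the 5′ end of Bub1, a spindle checkpoint kinase, 293 kb away. Bbc3 (ENSMUSG00000002083.6, plus strand, chromosome 7, 16894965 to 16903554) lay in an interval of 600 kb (16480001 to 17080000) with 21 coding genes, and its nearest peak was 297 kb away at the 5′ end of Grlf1. Bad (ENSMUSG00000024959.7, plus strand, chromosome 19, 7016351 to 7026388) lay in an interval of 606 kb (6894001 to 7500000) with 28 coding genes, 122 kb from its nearer edge and 350 kb from the nearest peak.

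The 5 wide intervals were thus separate, and they ranged from 600 to 1800 kb in width, against a median of 576 kb over all 289. Apart from that of Bcl2l11, they held 21.2 to 60.0 coding genes per Mb. Their GC content was 50.8% for Bax, 50.7% for Bak1, 50.4% for Bad, 49.0% for Bbc3 and 45.4% for Bcl2l11, where the median of wide intervals was 45.4%. The medians over wide intervals count each interval once, whereas these 5 were reached through a gene, and wider or more gene-dense intervals hold more genes. No excess is therefore read from these comparisons. Each gene was wholly inside its interval with at least 122 kb to the nearer edge. The 200 kb around each of the 5 genes held 0 peaks, which largely follows from the width of these intervals, since 0 peaks were listed inside any of them.

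**Figure D3:**
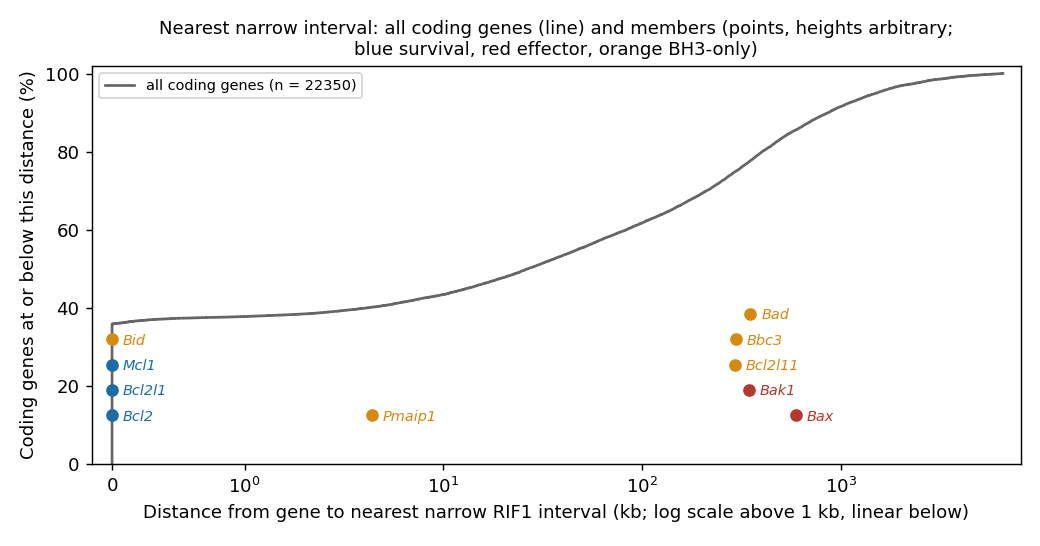
Distance from each gene to the nearest peak in kb (log scale above 1 kb), with a line for the share of coding genes at or below that distance (n = 22350 on chromosomes with peaks) and points for the 10 genes, whose heights carry no value. Bcl2, Bcl2l1, Mcl1 and Bid sit at 0, Pmaip1 at 4.36 kb and the 5 genes under wide intervals between 293 and 591 kb.

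Distances to the nearest peak fell into separate sets. They were 0 for 4 genes, 4.36 kb for Pmaip1 and at least 293 kb for the rest, and the median of 149 kb stands for none of the 10. The median over all coding genes was 26.5 kb. Over coding genes under a wide interval the median was 430 kb, beside 343 kb for the 5 members there. Over coding genes with no wide interval it was 2.82 kb, beside 0 kb for the other 5. A wide interval lay over or within 200 kb of 6 of 10 genes, against 28.7% of coding genes, and the one added was Mcl1. A peak lay within 200 kb of 5 of 10, against 69.2%.

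Surroundings of the genes also varied. The 5 members with no wide interval over them had 12.9 to 30.6 peaks per Mb within 200 kb. All were above the median of 11.4 for coding genes with no wide interval. Peaks over the gene itself are part of these counts. They were 5 of 8 at Bcl2, 2 of 13 at Bid, 1 each at Bcl2l1 and Mcl1 and 0 at Pmaip1. Around these 5 members, the number of neighbouring coding 5′ ends ran from 1 for Pmaip1 and 3 for Bcl2 to 10 for Mcl1 and 17 for Bcl2l1. Among those under a wide interval, the number ran from 0 for Bcl2l11 to 25 for Bax, with a median of 12, against 13 for all coding genes under wide intervals. Some of the peaks within 200 kb lay within 1 kb of a transcript 5′ end. These were 4 of 8 around Bcl2, 4 of 6 around Bcl2l1 and 4 of 11 around Mcl1. Around Bid they were 5 of 13, and around Pmaip1 1 of 10. Among all peaks in the list, 7801 of 16043 lay that near to a 5′ end.

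**Figure D4:**
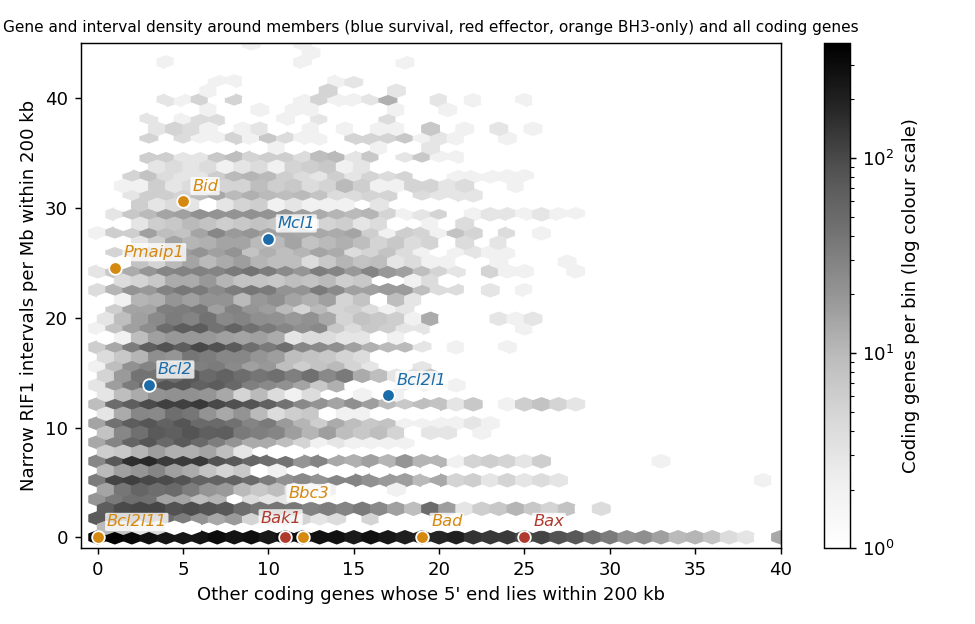
Peaks per Mb within 200 kb (vertical axis) against the number of other coding genes with a 5′ end in the same window (horizontal axis), for all coding genes (grey, darker for more genes per bin on a log colour scale, with 95 genes beyond the axes) and the 10 members (blue survival, red effector, orange BH3-only). Pmaip1 combines 24.6 peaks per Mb with 1 neighbour, while Bax has 25 neighbours and 0 peaks.

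Sequence at the 5′ ends, which the choice of genes did not use, was GC-rich on both sides of this division. In the 300 bases from 250 before to 50 after the outermost 5′ end, the median GC content was 65.7% among the 5 genes under wide intervals and 65.7% among the other 5, against 55.0% over all coding genes, and 9 of 10 were above that median. The exception was Bcl2l1 with 52.3%. A GC box was present in 9 of 10, again except Bcl2l1, against 43.4% of coding genes. The G-quadruplex motif was present in 3 of 10 (Bcl2, Bak1 and Pmaip1), against 21.0%. CCAAT was present in 1 of 10 (Bcl2l11), against 37.9%, and TATAAA in 0 of 10, against 13.4%. Bak1 stood apart in CpG, with 3 in its window against 19 to 44 in the other 9. Only the outermost 5′ end of each gene was examined, whereas Bak1 has 5 annotated 5′ ends and Bcl2l1 has 10.

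Upstream stretches of Bax (chr7:52722269-52722518, minus strand) and Bcl2l11 (chr2:127951524-127951773, plus strand) are shown as members under a wide interval, to be read beside those of Mcl1 and Bid.
Bax: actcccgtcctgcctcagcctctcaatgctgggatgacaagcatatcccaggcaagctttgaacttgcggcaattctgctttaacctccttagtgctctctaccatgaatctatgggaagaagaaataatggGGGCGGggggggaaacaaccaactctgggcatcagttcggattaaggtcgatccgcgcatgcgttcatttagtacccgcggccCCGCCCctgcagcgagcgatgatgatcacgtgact
Bcl2l11: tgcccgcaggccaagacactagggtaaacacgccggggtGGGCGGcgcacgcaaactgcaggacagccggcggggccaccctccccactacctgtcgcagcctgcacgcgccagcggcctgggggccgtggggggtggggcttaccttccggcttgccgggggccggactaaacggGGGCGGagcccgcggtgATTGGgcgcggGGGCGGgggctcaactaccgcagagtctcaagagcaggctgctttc
The GC content was 54.0% for Bax and 72.0% for Bcl2l11, with 14 and 24 CpG. Bax held a GC box on each strand, starting 118 and 35 bp before the 5′ end. Bcl2l11 held GC boxes starting 211, 74 and 46 bp before it and CCAAT on the opposite strand 57 bp before it. These are matches of letters, not measured sites, and since no peak can be listed inside a wide interval, nothing on peaks is read from them.

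Lists of other apoptosis genes were then described in the same way, each beside the background of all coding genes. This was 33.9% with a peak at a 5′ end, 22.2% with a wide interval and no peak, and 40.5% with neither. Of 15 further BCL2 family genes, 5 had a peak at a 5′ end (Bok, Hrk, Bcl2l13, Bcl2l14 and Bnip3), or 33.3%, close to the background. Of the others, 1 had peaks only elsewhere in the gene (Bcl2l15), 6 lay under a wide interval and 3 had neither. Those under a wide interval were the BH3-only genes Bmf and Bik, the family member Bcl2l12 and the survival genes Bcl2a1a, Bcl2a1b and Bcl2a1d. Bcl2l12 shared the wide interval of Bax. The 3 Bcl2a1 genes shared 1 wide interval on chromosome 9, and since they are near-identical copies and only uniquely aligned reads were kept, their own occupancy is uncertain. Under wide intervals there were thus both survival and death genes in this list. Bok, a relative of BAX and BAK, and Hrk, a BH3-only gene, each had a peak at a 5′ end.

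Among 12 genes of the caspase arm that follows mitochondrial permeabilisation, 6 had a peak at a 5′ end, 4 lay under a wide interval and 2 had neither. Those with a peak at a 5′ end included Apaf1 and Cycs, which build the apoptosome, and Casp6, whereas the initiator Casp9 lay under a wide interval. The inhibitor Birc3 had a peak at a 5′ end, and Birc2 had neither kind of interval. Diablo and Htra2, which release caspases from inhibitors, and Birc5 lay under wide intervals. Xiap had neither.

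The death receptor arm had 7 of 9 genes with a peak at a 5′ end, which were Fas, Fadd, Casp8, Cflar, Tnfrsf10b, Ripk1 and Tradd. Tnfrsf1a lay under a wide interval and Fasl had neither. In the p53 arm, 3 of 7 genes had a peak at a 5′ end (Mdm4, Trp73 and Ppm1d) and 3 lay under a wide interval (Trp53, Mdm2 and Cdkn1a). These counts were not tested against each other, and the lists are short.

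**Figure D5:**
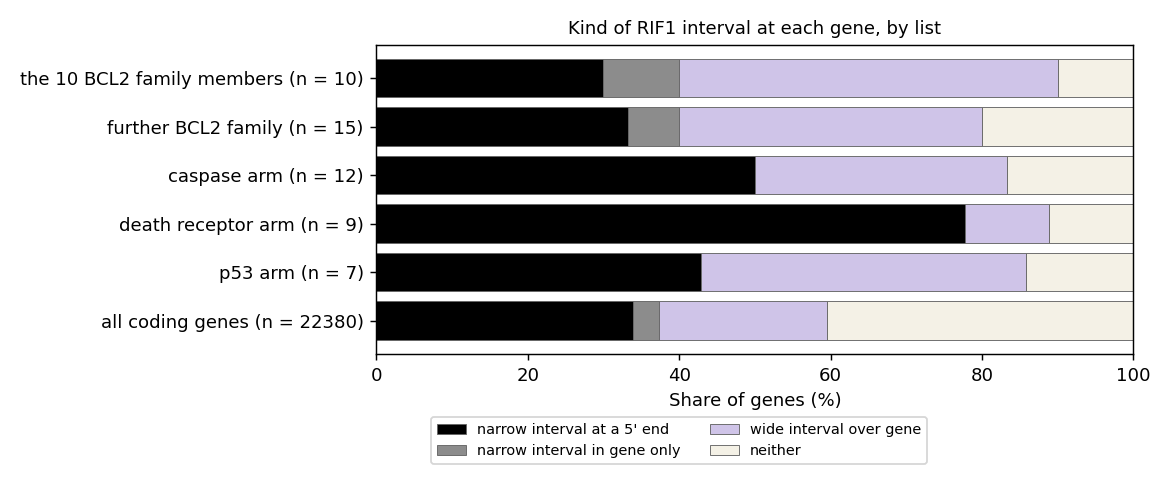
Share of genes in percent (horizontal axis) with a peak at a 5′ end (black), a peak only elsewhere in the gene (grey), a wide interval over the gene and no peak (pale purple) or neither (cream), for the 10 members, 4 further lists and all 22380 coding genes. The members have 50.0% under wide intervals and 10.0% with neither, against 22.2 and 40.5% of all coding genes, and the death receptor arm has 77.8% with a peak at a 5′ end.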

How the data were processed

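RIF1 ChIP-seq was performed on 2 Rif1FH and 2 Rif1WT samples. As the study's methods and the submitters' processing notes describe it, the authors trimmed reads with Trim Galore 0.6.4, aligned them to mm9 with Bowtie 1.0.0 keeping unique alignments, called narrow and broad peaks per replicate with MACS2 2.2.6 and RADs with EDD, merged them with bedtools 2.27.1, kept those called in both replicates and left out peaks that overlapped a RAD. Unique alignment leaves out repeated sequence. The antibody label names anti-CD43 beads, and the protocol's anti-HA antibody was followed.

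The deposited intervals are positions only, and depth is unknown. Coordinates were counted from 1 and compared with GENCODE M1 genes and the NCBIM37 genome (both mm9). An overlap of at least 1 bp counted. Windows were 1 kb on each side of every transcript 5′ end and 200 kb on each side of the gene. The window of 200 kb took in the gene itself. Named genes were the 10 members, then genes of 4 further lists with an interval at them, and neighbours that share or lie nearest to a member's interval. Fasl, Xiap and Birc2 fall outside this rule and were named after their values were seen. Members and lists were chosen with earlier results of these data known. Some members of these lists and some sequences are not reported here. No test was run. Code was tested on simulated data. Python 3.11.15, numpy 2.4.6, pandas 2.3.3, pysam 0.24.0, samtools 1.23.1 and matplotlib 3.10.9 were used. Alternatives are given in the closing section.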

Additional observations from a re-analysis of the deposited data

How the results depend on the processing

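Of 30 values for 7 results recomputed under other settings, 24 stayed within 1.5 times the reported value (for GC content, within 1 SD over the 4 peaks at 5′ ends) and 6 moved. With only peaks at or above the median width (1365 bp), 1 of 10 genes, Bid, kept a peak at a 5′ end, and the median number of peaks within 200 kb was 1.5 in place of 3. Without a split by width, 8 genes had an interval at a 5′ end, 9 had one over the gene, and the median distance was 0 kb, since wide intervals then count. With windows of 200 kb in all, centred on the outermost 5′ end, the median number was 1, as the window is shorter. Windows of 0.1 kb left 2 genes with a peak at a 5′ end, and windows of 0.5 to 5 kb left 3. When 50% of the narrower feature had to overlap, 5 genes lay under wide intervals as before, but 3 genes in place of 4 had a peak over the gene, since the Mcl1 peak lies mostly upstream. With exons only, 3 genes had one.

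No paired analysis was possible because both replicates are combined in 1 list of positions, and for the same reason no replicate was left out and no stricter score was set. Depth is unknown, and an interval called in only 1 replicate is not listed.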
